A study of Mus musculus with 10 samples.

Results

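The 10 genes described here encode the transcription factors Nanog, Pou5f1, Sox2, Klf4, Esrrb, Tfcp2l1, Zfp42, Sall4, Nr5a2 and Prdm14, chosen by name. All 10 were found among the 35976 genes of the count table. These factors form the network that keeps the cells of the early embryo, and embryonic stem cells, able to make every tissue. Pou5f1 (also called Oct4) and Sox2 bind DNA side by side, and Nanog, Klf4, Esrrb and Tfcp2l1 hold the naive state of the network. In the mouse embryo the morula is the stage before the trophectoderm, the future placental layer, parts from the inner cell mass. Sox2 and Nanog become restricted to the inner cells, Sox2 early. Jarid2 is a cofactor of PRC2, the Polycomb complex that methylates histone H3 at lysine 27, and in stem cells it helps to bring that complex to silent developmental genes.

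Polyadenylated RNA was read in 10 libraries of mouse morulae. The column names give the cross BDF1 x PWK for the pools and no cross for the single embryos. The first set held libraries of 1 female embryo each, 3 of wild-type genotype (replicates 1 to 3) and 3 of the Jarid2 knockout (replicates 1, 3 and 4). The second set held libraries of about 20 embryos each, 2 controls and 2 Jarid2 knockouts. The sources used here do not state the sex of the embryos in pools, the deleted exons or the way the deletion was made. In such bulk samples, fewer cells that express a gene and less of its RNA per cell cannot be told apart. The comparison asks whether loss of Jarid2 changed the RNA of the pluripotency factors, within single embryos and within pools.

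The Nanog and Zfp42 genes carry, just before their start, motifs of the kind that Pou5f1 binds, and these windows are shown because the 2 genes had the smallest p among members in the pools, where neither passed after adjustment. Pou5f1 and Tfcp2l1 were, like Nanog and Zfp42, lower in each knockout pool than in each control pool (15.7% of all genes tested), and their windows held none of the motifs searched. Each sequence is the 250 bases before the annotated start, 5′ to 3′ on the gene's strand, from RefSeq (GRCm38.p6). Capitals mark the SOX2 and OCT4 composite site in Nanog and the POU octamer in Zfp42, both lying in reverse orientation.
Nanog, chr6:122707239-122707488, plus strand: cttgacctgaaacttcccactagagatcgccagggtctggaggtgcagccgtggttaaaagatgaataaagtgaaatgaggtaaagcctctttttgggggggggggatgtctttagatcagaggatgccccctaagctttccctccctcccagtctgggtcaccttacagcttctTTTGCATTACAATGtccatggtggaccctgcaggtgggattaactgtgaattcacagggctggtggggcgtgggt
Zfp42, chr8:43307010-43307259, minus strand: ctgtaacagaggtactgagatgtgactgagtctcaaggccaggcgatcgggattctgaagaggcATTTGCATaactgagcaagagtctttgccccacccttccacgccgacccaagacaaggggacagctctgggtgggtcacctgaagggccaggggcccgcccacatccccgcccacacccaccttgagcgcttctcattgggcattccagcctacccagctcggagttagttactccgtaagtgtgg
The composite site, searched on both strands as the capitals of Nanog with the base between the SOX and POU letters left free, begins 75 bases before the start of Nanog. It was found in 2 of 32851 such windows (0.00609%), both of them overlapping windows of Nanog. The letters searched are those shown for Nanog, so its match was fixed in advance. Variants of the site were not counted. The octamer ATGCAAAT begins 186 bases before the start of Zfp42 and was found in 1.6% of all windows. Its first 7 letters can be part of a composite site, so the searches overlap. The box CCACACCC, a site type of KLF proteins, was found in 3.2% of windows and among the members only in Zfp42. The half-site AAGGTCA, of the kind bound by Esrrb and Nr5a2, was found in 4.08% of windows and in no window of a member. Windows were matched for 8 of the 10 members, all but Sall4 and Prdm14. A match is a run of letters and not evidence of binding in these embryos.

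Single-embryo libraries held 14830332 to 18696312 counts in total, and pooled libraries 41003216 to 49861963. Levels are given as CPM, a gene's count for each 1000000 counts of its library after TMM scaling. Jarid2 itself had 539, 616 and 770.5 CPM in the wild-type single embryos against 162, 295 and 61.8 CPM in the knockouts numbered 1, 3 and 4. The gene fell by 1.92 on the log2 scale (SE 0.43, edgeR adjusted p = 0.0342). Its adjusted p was above the threshold with any 1 of the wild types left out (0.0989, 0.0507 and 0.109 for replicates 1, 2 and 3), or with knockout replicate 1 (0.127) or 4 (0.0735) left out. In the pools it had 491 and 529 CPM in controls and 195 and 154 CPM in knockouts (log2 -1.55, SE 0.18, edgeR adjusted p = 0.0792), where DESeq2 (adjusted p = 5.19e-11) and limma-voom (0.0302) called it. Knockout replicate 3 thus kept more Jarid2 RNA than the other knockout single embryos. Marker sums were those of embryos. The 9 cumulus and granulosa markers summed to at most 0.814 CPM in any library, with Fshr, Inha, Inhba, Has2 and Ptx3 at 0 counts throughout. The 12 trophectoderm markers summed to 1346 to 3276 CPM and the 8 epiblast markers to 444 to 766 CPM. The epiblast list includes the members Nanog, Sox2, Pou5f1, Klf4 and Prdm14, so its sum is not separate evidence. The 9 primitive endoderm markers summed to 873.7 to 1170 CPM and the 11 oocyte markers to 50.59 to 162.5 CPM.

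None of the 10 pluripotency factor genes passed the 5% threshold in single embryos or in pools by edgeR's quasi-likelihood test. Most 2-fold changes set into simulated data were missed too, so the lack of a call does not exclude changes of that size. Among single embryos 605 of 13830 genes tested passed (4.37%), and at an unadjusted p under 0.05 there was 1 member, Nr5a2, where 3131 genes in all had such a p. The count of all genes past the threshold was 41 without wild-type replicate 1, 1 without wild-type replicate 3, and 66, 1316 and 1 without knockout replicates 1, 3 and 4. Among pools 0 of 16259 genes passed (0.0%), with 1073 genes at an unadjusted p under 0.05 and 2 members there, Nanog and Zfp42. DESeq2 called 71 genes in the pools and limma-voom 1, and neither called a member in either set. The median log2 change of the members was -0.19 in single embryos, where all tested genes had -0.04, and -0.09 in pools, where all had 0.01. In both sets 3 members had a log2 change above 0 and 7 below it.

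**Figure D1:**
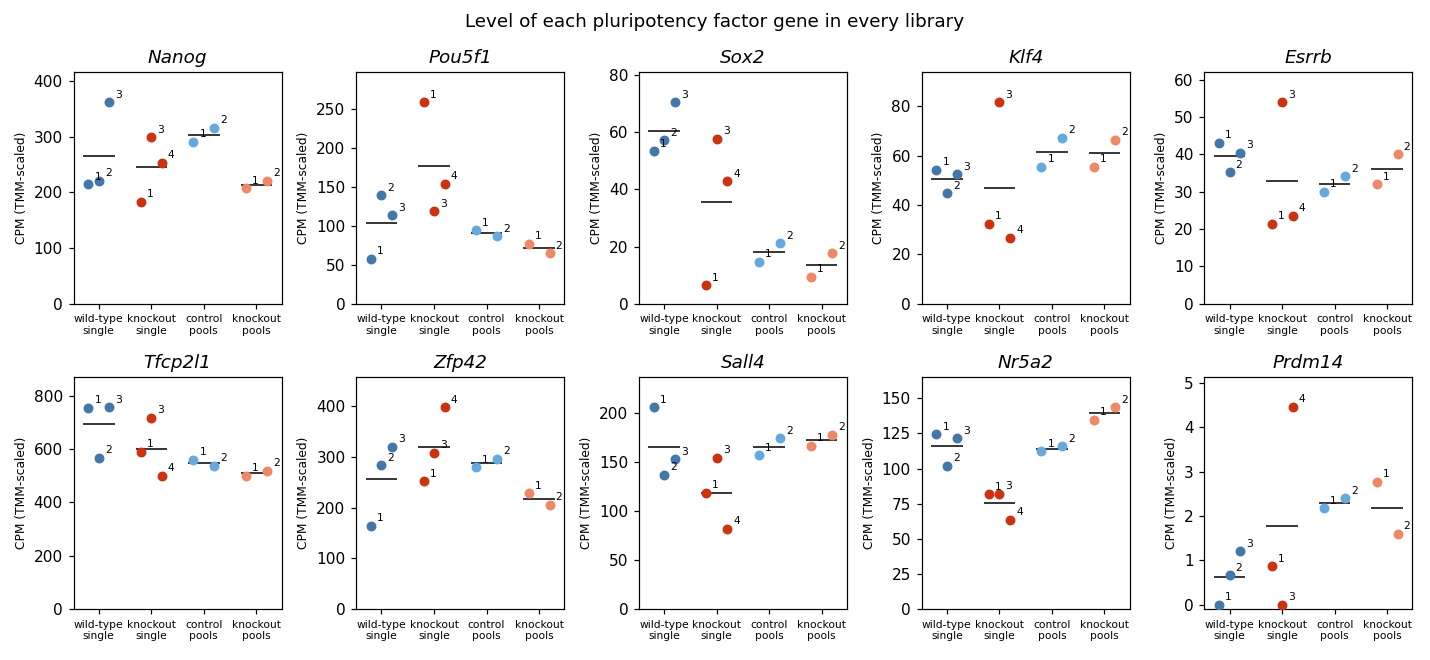
Level of each pluripotency factor gene in every library, in CPM after TMM scaling (linear axes). Points are libraries with their replicate number, and bars are group means (3 single embryos or 2 pools a group). Nr5a2 lies lower in the 3 knockout single embryos (63.4 to 82.0 CPM) than in the 3 wild types (102 to 124 CPM), and higher in the knockout pools than in the control pools.

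Pou5f1, the POU factor that inner cells need to be pluripotent, had 57.9, 140 and 114 CPM in the wild-type single embryos. The knockout replicates 1, 3 and 4 had 259, 119 and 154 CPM. Knockout replicates 1 and 4 thus lay above each wild type, while replicate 3 lay among them, and without TMM scaling replicate 4 lay among them too. Wild types averaged 104 ± 41.8 CPM where knockouts averaged 177 ± 73.0 CPM (SD, n = 3), a log2 change of 0.75 (95% interval -0.04 to 1.53, adjusted p = 0.245). Without a filter on low counts the same comparison passed (0.75, adjusted p = 0.0301), while it was 0.35 without knockout replicate 1 (adjusted p = 0.688) and 0.46 without wild-type replicate 1 (0.573). In the pools Pou5f1 had 94.3 and 86.6 CPM in controls and 77.3 and 65.1 CPM in knockouts. Both knockout pools lay below both controls, an order that 4 members (Nanog, Pou5f1, Tfcp2l1 and Zfp42) and 15.7% of all genes tested shared, with a log2 change of -0.35 (95% interval -0.74 to 0.03, adjusted p = 0.777).

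Sox2, the HMG-box partner of Pou5f1 and an early mark of the inner cells, had 53.3, 57.2 and 70.6 CPM in the wild-type single embryos. Sox2 counts came to 6.44, 57.7 and 42.9 CPM in knockouts 1, 3 and 4. Replicate 1 had the lowest Sox2 level of the 10 libraries and their highest Pou5f1 level, while replicate 3 lay among the wild types. The log2 change was -0.79 (95% interval -2.03 to 0.44, adjusted p = 0.446), and it was -0.30 without knockout replicate 1. The pools held less Sox2 RNA than most single embryos, with 14.7 and 21.2 CPM in controls and 9.43 and 17.7 CPM in knockouts (log2 -0.41, 95% interval -1.10 to 0.28, adjusted p = 0.864). That change was -0.03 without knockout pool 1 and -0.94 without knockout pool 2. Knockout pool 1 lay below both controls and knockout pool 2 between them. The wild-type single embryos and the control pools did not overlap for Sox2, as for 22.0% of the 15878 genes tested over all libraries in that direction. Read per kilobase of exon, Pou5f1 exceeded Sox2 by a ratio of 36.8 in knockout replicate 1, against 0.994 to 2.23 in the wild types, 1.89 and 3.28 in knockout replicates 3 and 4, and 3.36 to 7.50 in the pools.

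Nanog, the homeodomain factor that marks the epiblast, had 215, 221 and 362 CPM in the wild-type single embryos and 183, 299 and 253 CPM in knockout replicates 1, 3 and 4. The groups overlapped, and the log2 change of -0.14 (95% interval -0.68 to 0.40, adjusted p = 0.783) took the other sign without wild-type replicate 3 (0.12) or knockout replicate 1 (0.02). In the pools it had 290.2 and 315 CPM in controls and 207 and 221 CPM in knockouts. Its means were 303 ± 17.9 and 214 ± 9.81 CPM (SD, n = 2). The log2 change was -0.51 (SE 0.16, 95% interval -0.87 to -0.14) with an unadjusted p of 0.011 and an adjusted p of 0.62.

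Klf4, a zinc-finger factor of the naive network, had 54.2, 44.8 and 52.5 CPM in the wild-type single embryos. Knockouts had 32.5, 81.7 and 26.7 CPM in replicates 1, 3 and 4. The knockouts thus fell on both sides of the wild types, 2 below and 1 above, and the log2 change of -0.14 (95% interval -0.98 to 0.71, adjusted p = 0.873) took the other sign without replicate 1 (0.07) or 4 (0.14). Esrrb, an orphan nuclear receptor that can stand in for Nanog in stem cells, showed the same order. Its wild types had 43.1, 35.2 and 40.4 CPM, and knockout replicates 1, 3 and 4 had 21.4, 54.0 and 23.5 CPM (log2 -0.30, 95% interval -1.09 to 0.49, adjusted p = 0.681). For both genes replicate 3, the knockout with the most Jarid2 RNA, held the highest level of the 6 single embryos. The part of that residual Jarid2 RNA in the levels was not tested. In the pools Klf4 had 55.5 and 67.4 CPM in controls and 55.6 and 66.5 CPM in knockouts, a log2 change of -0.01 (95% interval -0.43 to 0.40). Esrrb had 29.9 and 34.1 CPM in controls and 32.0 and 40.0 CPM in knockouts (log2 0.16, 95% interval -0.27 to 0.60, adjusted p = 0.923).

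Tfcp2l1, a naive factor downstream of LIF and Stat3 signalling, was the member with the most reads in all 10 libraries. It had 755, 568 and 756 CPM in the wild-type single embryos and 589, 716 and 499 CPM in knockout replicates 1, 3 and 4 (log2 -0.23, 95% interval -0.65 to 0.18, adjusted p = 0.519). In the pools it had 559 and 538 CPM in controls and 499 and 518 CPM in knockouts (log2 -0.12, 95% interval -0.47 to 0.24, adjusted p = 0.938). The pools did not overlap on this scale but did with library totals alone.

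Zfp42, known as Rex1 and a common reporter of the naive state, had 164, 283 and 319 CPM in the wild-type single embryos and 252, 308 and 397 CPM in knockout replicates 1, 3 and 4. These groups overlapped (log2 0.29, 95% interval -0.28 to 0.86, adjusted p = 0.557). In the pools it had 279 and 296 CPM in controls and 228 and 206 CPM in knockouts. The means were 288 ± 12.0 and 217 ± 15.5 CPM (SD, n = 2), a log2 change of -0.41 (95% interval -0.78 to -0.05) with an unadjusted p of 0.0291 and an adjusted p of 0.697.

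Nr5a2, a nuclear receptor that binds DNA as a monomer and can replace Pou5f1 in reprogramming, was the one member with no overlap between groups in both sets. It had 124, 102 and 122 CPM in the wild-type single embryos and 81.8, 82.0 and 63.4 CPM in knockout replicates 1, 3 and 4. Each knockout lay below each wild type, as for 14.0% of all genes tested. The means were 116 ± 12.2 and 75.7 ± 10.7 CPM (SD, n = 3). The log2 change was -0.64 (SE 0.22, 95% interval -1.11 to -0.17) with an unadjusted p of 0.0126 and an adjusted p of 0.109. With the spread estimated over all 10 libraries it passed (log2 -0.61, adjusted p = 0.0426). In the pools the order was the opposite, with 112 and 116 CPM in controls and 135 and 144 CPM in knockouts (log2 0.28, 95% interval -0.08 to 0.64, adjusted p = 0.822). Both knockout pools lay above both control pools, as for 20.0% of genes.

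Sall4, a zinc-finger factor that activates Pou5f1, had 206, 137 and 153 CPM in the wild-type single embryos and 119, 154 and 81.9 CPM in knockout replicates 1, 3 and 4. Replicates 1 and 4 lay below each wild type and replicate 3 among them (log2 -0.51, 95% interval -1.09 to 0.07, adjusted p = 0.277). In the pools it had 157 and 174 CPM in controls and 167 and 178 CPM in knockouts (log2 0.05, 95% interval -0.32 to 0.42, adjusted p = 0.98). Prdm14, a PR-domain factor of naive cells and germ cells, was close to the detection limit. Its counts were 0, 13 and 21 in the wild-type single embryos and 15, 0 and 80 in knockout replicates 1, 3 and 4. A count of 0 allows up to 0.188 CPM in wild-type replicate 1 and 0.149 CPM in knockout replicate 3, at 3 counts a library and for counting error only. In the pools it had 84 and 107 counts in controls and 128 and 67 in knockouts, and no difference was detectable at this depth in either set.

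**Figure D2:**
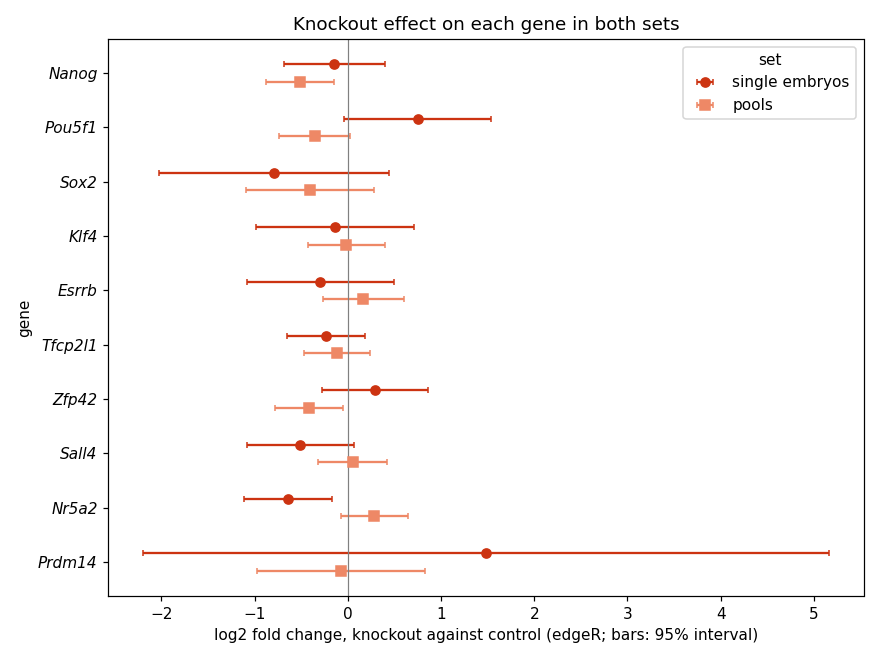
Change of each pluripotency factor gene, knockout minus control, as log2 fold change from edgeR with its 95% interval, in single embryos and in pools. Intervals that leave out 0 belong to Nr5a2 in single embryos (-1.11 to -0.17) and to Nanog (-0.87 to -0.14) and Zfp42 (-0.78 to -0.05) in pools, all unadjusted.

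The knockout effect was set against itself between single embryos and pools by an interaction term over all 10 libraries. It passed for 1 of 15878 genes (0.0063%) and for 0 of the 10 members, with 2326 genes at an unadjusted p under 0.05, 544 calls by DESeq2 and 1 by limma-voom. Nr5a2 had the smallest p among members, with an effect lower by 0.90 on the log2 scale in single embryos (log2 -0.90, SE 0.27, 95% interval -1.50 to -0.31, adjusted p = 0.235), and DESeq2 called it (-0.87, adjusted p = 0.0369). Pou5f1 differed the other way (1.12, SE 0.51, 95% interval 0.02 to 2.21, adjusted p = 0.332), and so did Zfp42 (0.73, SE 0.37, adjusted p = 0.389). Without a filter Pou5f1 passed (1.16, adjusted p = 0.0448). Nr5a2 was the only member whose groups stood apart in opposite directions in the 2 sets, a pattern that 608 of 13677 genes (4.45%) showed. No member stood apart in the same direction in both, as 593 genes (4.34%) did.

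The knockout single embryos differed among themselves. Knockout replicate 1 lay below every wild type for 6 members, namely Nanog, Sox2, Klf4, Esrrb, Sall4 and Nr5a2, where 34.6% of all genes did so. Replicate 4 lay below every wild type for 6 members, with Tfcp2l1 in the place of Nanog, against 32.7% of genes. Replicate 3 did so for Nr5a2 alone, against 24.8% of genes, and lay above every wild type for Klf4 and Esrrb, against 29.4%. With replicate 3 left out, the 2 remaining knockouts lay below all wild types for 5 members (Sox2, Klf4, Esrrb, Sall4 and Nr5a2), against 24.1% of genes, and above them for Pou5f1, against 22.2%. Replicate 4 lay above every wild type for Pou5f1, Zfp42 and Prdm14, against 32.3% of genes, and replicate 1 for Pou5f1, against 32.0%. No member had all 3 knockouts above all wild types, as 14.1% of genes did. Among pools, knockout 1 lay below both controls for 5 members (31.1% of genes) and above them for Nr5a2 and Prdm14 (33.0%), and knockout 2 lay below for 5 (34.9%) and above for Esrrb, Sall4 and Nr5a2 (41.0%). That pair was looked at after the values were seen, and the fit without replicate 3 called 0 members and 1316 of 14546 genes, with 5 members and 3865 genes at an unadjusted p under 0.05.

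**Figure D3:**
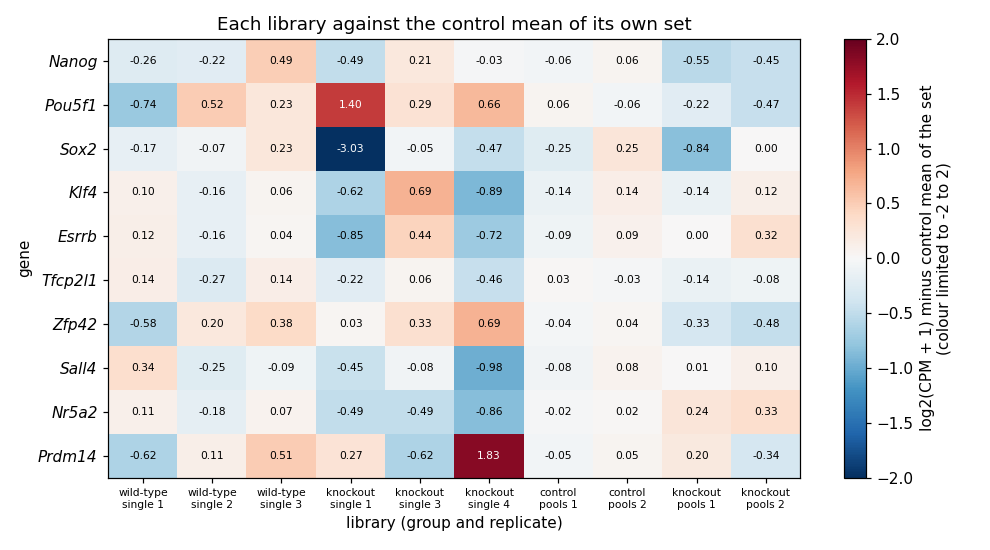
Deviation of each library from the mean of its set's controls, in log2(CPM + 1), for the 10 pluripotency factor genes. Knockout single embryos 1 and 4 lie below the wild-type mean for Klf4, Esrrb and Sall4, knockout 3 lies near or above it for these genes, and Sox2 is lowest in knockout 1.

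Spread between embryos was larger among knockouts than among wild types for 7 of 10 members, the exceptions being Nanog, Pou5f1 and Zfp42, while 50.9% of all genes had the larger spread among knockouts. The SD of log2(CPM + 1) was 1.61 for Sox2 in knockouts against 0.21 in wild types. It was 0.84 against 0.14 for Klf4 and 0.71 against 0.15 for Esrrb. The median SD of members was 0.27 in wild types and 0.51 in knockouts, where all genes had 0.37 and 0.39. Jarid2 itself varied more among knockouts (SD 1.13) than among wild types (0.26). In pools, each an average over many embryos, the median SD of members was 0.09 in controls and 0.14 in knockouts, where all genes had 0.15 and 0.17. There 6 of 10 members and 56.8% of all genes were more spread among knockouts.

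Across the 10 libraries the members split in their patterns, given as a description only. The libraries differ in set, depth and genotype, so r mixes these differences. Klf4 and Esrrb went together (Pearson r = 0.836 of log2(CPM + 1)), and so did Sall4 and Nr5a2 (0.857). Pou5f1 ran against Sall4 (-0.774) and Nr5a2 (-0.769), and Zfp42 ran against Sall4 (-0.733) and with Pou5f1 (0.583). Among the 7993 genes with at least 10 CPM on average, the patterns most like those of members were Efhd2 (0.976) and BC053393 (0.982) for Sox2, and Sars2 (0.975) and Ppp5c (0.963) for Pou5f1. Psme2 (0.913) and Pigh (0.898) were most like Nanog, Ppcs (0.964) and Gapdh-ps15 (0.935) most like Zfp42, and Jmy (0.927) and Wfdc15a (0.927) most like Nr5a2. Sall4 was most like Pum2 (0.982) and Nr2c2 (0.977), Klf4 like Rtel1 (0.95) and Usp19 (0.942), Esrrb like Rcor1 (0.974) and Cbfb (0.971), and Tfcp2l1 like Phf12 (0.962) and Usp48 (0.947).

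Levels were compared between genes per kilobase of merged exons (GENCODE M21). Zfp42 stood highest in the mean of each group, with 136 CPM per kilobase in wild-type single embryos, 170 in their knockouts, 153 in control pools and 115 in knockout pools. Nanog was next with 119, 109, 135 and 95.3 CPM per kilobase in the same order. Tfcp2l1 followed in wild-type single embryos and in pools, with 73.4, 58.1 and 53.9 CPM per kilobase, while in the knockout single embryos Pou5f1 (78.9) stood above it (63.7). Pou5f1 otherwise had 46.2 CPM per kilobase in wild-type single embryos, 40.3 in control pools and 31.7 in knockout pools. Sall4 (29.8) and Sox2 (29.3) were alike in wild-type single embryos, whereas in control pools Sall4 had 29.9 and Sox2 8.73 CPM per kilobase. Nr5a2 and Klf4 lay between 12.8 and 23.6 CPM per kilobase in all 4 groups and Esrrb between 5.29 and 6.54. Prdm14 was last in every library, at 0.242 to 0.892 CPM per kilobase in group means.

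By group mean most neighbours in the order of a gene's levels overlapped in range. Exceptions within the pools were Pou5f1 and Tfcp2l1, where the control pools lay above the knockout pools (15.7% of genes). Across the sets, the knockout pools lay above the wild-type single embryos for Nr5a2 and Klf4. The control pools lay above the knockout single embryos for Nr5a2. For these orders across sets the share of all genes was not computed, and they mix genotype with set. Wild-type single embryos lay above control pools for Sox2, Esrrb and Tfcp2l1 (22.0% of genes) and below them for Klf4 and Prdm14 (24.1%), Klf4 not with library totals alone. Input and depth differ between the sets and cannot be told apart there, and the sex of the pooled embryos is unknown.

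Sox2 moved across libraries with the summed level of the trophectoderm markers, a sum weighted to abundant ones such as Krt18 (328 to 1018 CPM). The 12 trophectoderm markers summed to 2606, 2454 and 3276 CPM in the wild-type single embryos and to 1464, 2700.0 and 2176 CPM in knockout replicates 1, 3 and 4, and to 1632 and 2161 CPM in control pools and 1346 and 1824 CPM in knockout pools. The 5 libraries with the most Sox2 RNA were also the 5 with the highest trophectoderm sum, and no library's rank differed by more than 1 between the measures. The remaining libraries were all the pools and knockout replicate 1, so this order includes the gap between the sets. The share of all genes with such an order was not computed. The part of trophectoderm content in the Sox2 levels was not tested. Single markers did not all follow the sum. Of Cdx2, a defining trophectoderm factor, knockout replicate 1 had 42.2 CPM, the highest of the 10 libraries, where the others had 19.4 to 31.2 CPM. Tead4 had 107.8 CPM there, against 81.2 to 91.2 CPM in the wild-type single embryos and 109.9 CPM in knockout replicate 3. Krt18 (499 CPM) and Krt8 (266 CPM) were lower in knockout replicate 1 than in the other single embryos. Gata3 (190 CPM), Dppa1 (152 CPM), Eomes (4.43 CPM) and Gata2 (0.403 CPM) were each at their lowest of the 10 libraries in knockout replicate 1.

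**Figure D4:**
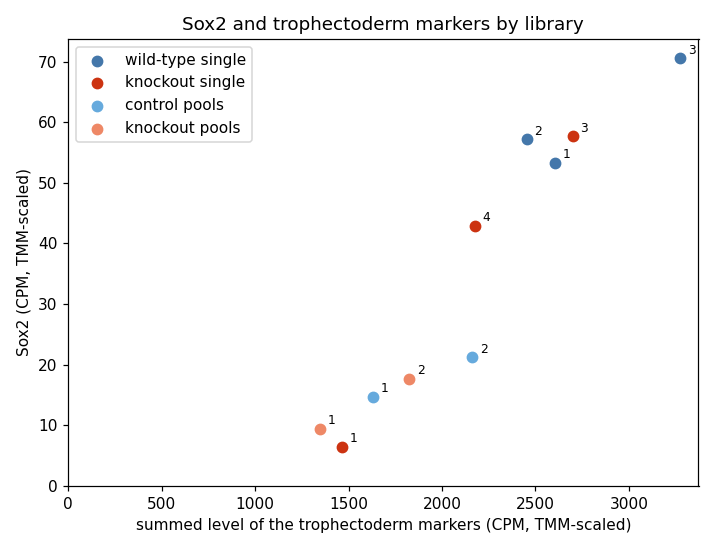
Sox2 level against the summed level of 12 trophectoderm markers, both in CPM after TMM scaling, 1 point a library. The 3 wild-type single embryos and knockouts 3 and 4 lie at the upper right (Sox2 42.9 to 70.6 CPM), and knockout 1 lies with the pools at the lower left (6.44 CPM).

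Of 47 other genes of the pluripotency network, 41 were tested in single embryos and 42 in pools, and 0 passed in either. At an unadjusted p under 0.05, single embryos had 5 with higher and 5 with lower values in knockouts, and pools had 5 and 3. Of all genes tested, 1444 were higher and 1687 lower at that p among the 13830 in single embryos, and 692 and 381 among the 16259 in pools. Of the 11 signalling genes, the 7 tested in single embryos (Il6st, Stat3, Socs3, Fgf4, Tdgf1, Gdf3 and Bmp4) had log2 changes below 0 (median -0.86, from -2.49 to -0.02), as 7145 of all 13830 genes did. Of these 7, Gdf3, a TGF-beta family ligand, was at an unadjusted p under 0.05 (log2 -0.86, adjusted p = 0.086). Lifr, Nodal, Lefty1 and Lefty2 had too few counts to be tested there. The signalling genes had a median of -0.02 over 8 tested in pools. The 12 tested transcription factors had medians of -0.09 and 0.19 and the 22 partners and chromatin regulators -0.16 and -0.07. All tested genes had medians of -0.04 and 0.01.

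The smallest p in single embryos belonged to Fbxo15, a Pou5f1 target gene once used to select reprogrammed cells (log2 0.96, SE 0.28, adjusted p = 0.076). Wild types had 861, 660.2 and 829 CPM, knockouts 1, 3 and 4 had 2370.0, 1201 and 1063 CPM, and the pools had 1708 to 2220 CPM. Sox15, a SoxG factor, had 38.2, 49.9 and 33.9 CPM in wild types against 216, 57.7 and 73.0 CPM in knockouts (log2 1.48, SE 0.45, adjusted p = 0.0829). Its level was 108 to 189 CPM in the pools. For Sox2, Fbxo15 and Sox15, knockout replicate 1 was thus nearer to the pools than to the wild-type single embryos. These genes were picked after the values were seen, and the share of all genes was not computed. Pou5f1 did not do so, with 259 CPM there, 65.1 to 94.3 CPM in the pools and 57.9 to 140 CPM in wild types. Of Tet2, which oxidises methylated cytosine, wild types had 426, 302 and 415 CPM where knockouts had 243, 281 and 205 CPM (-0.68, SE 0.20, adjusted p = 0.078). Without knockout replicate 3 all 3 of these genes passed (adjusted p = 0.0427, 0.028 and 0.0467 for Fbxo15, Sox15 and Tet2), as they did with DESeq2 (0.0065, 0.00296 and 0.0325). Without knockout replicate 1 the change was 0.50 for Fbxo15 (adjusted p = 0.225), 0.64 for Sox15 (0.332) and -0.69 for Tet2 (0.2). In the pools the smallest p belonged to Otx2, a factor of primed cells, with 11.1 and 10.2 CPM in controls and 18.0 and 23.3 CPM in knockouts (log2 0.95, SE 0.23, adjusted p = 0.399). DESeq2 called it (adjusted p = 0.0447), and so did edgeR without knockout pool 1 (0.00504). Klf17 had 7.96 and 8.58 CPM in control pools and 13.2 and 17.5 CPM in knockout pools (0.88, SE 0.24, adjusted p = 0.532), with an adjusted p of 0.0147 without knockout pool 1. Il6st, the shared chain of the LIF receptor, was at 1.5 and 1.06 CPM in controls and 0.35 and 0.33 CPM in knockouts (-1.90, SE 0.61, adjusted p = 0.62).

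**Figure D5:**
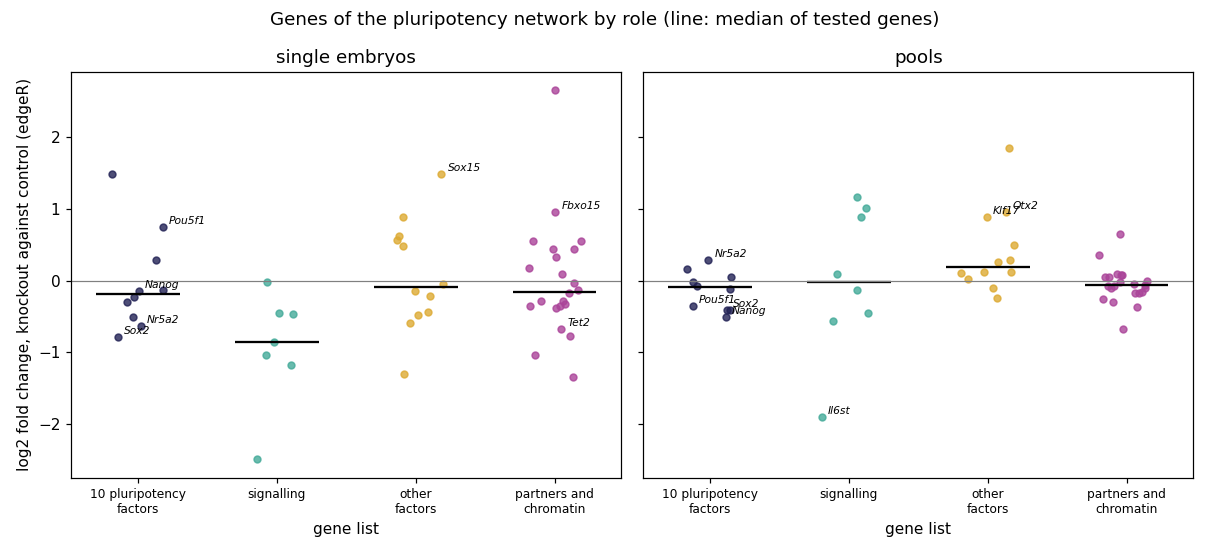
Change, knockout minus control, of the other pluripotency network genes by list, as log2 fold change from edgeR in single embryos and in pools, 1 point a gene. In single embryos the 7 tested signalling genes all lie below 0, with Bmp4, Il6st and Socs3 at low counts.

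The members' gene models place Nanog on chromosome 6 (122707489 to 122714633), Pou5f1 on 17 (35506018 to 35510772), Sox2 on 3 (34650405 to 34652461), Klf4 on 4 (55527143 to 55532466), Esrrb on 12 (86361117 to 86521628) and Zfp42 on 8 (43295063 to 43306980), in GRCm38. Sall4 lies on 2 (168748332 to 168767943), and Tfcp2l1 (118627945 to 118685168), Nr5a2 (136842571 to 136960448) and Prdm14 (13113457 to 13127163) lie on 1. Values of Nanog and Zfp42 are uncertain where reads cannot be placed, since Nanog shares stretches of 86 to 245 bases at 95% identity or more with transcripts of 38 other genes, the pseudogene Nanog-ps1 among them, and Zfp42 shares 266 bases with Zfp42-ps1. The strand of counting is not given, so reads of Gm19553, which lies antisense to Pou5f1 over 317 exon bases, cannot be told from those of Pou5f1.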

How the data were processed

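Whole morulae freed of the zona pellucida were turned into cDNA with a low-input SMART-Seq kit and read as single reads of 75 bases, per the labels' protocols. The values used are counts per gene that the authors deposited in a table of all libraries, and the submitters' processing notes name fastp 0.21.0, STAR 2.7.6a, RSEM 1.3.1 and the build mm10, without saying how each was used. The sources used here give neither the counter nor its annotation and strand setting. Spreadsheet software had turned 27 gene names into dates, none of them a member. The members and gene lists were chosen with earlier results of these data known.

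Each set was tested by itself with edgeR 4.0.16 (quasi-likelihood test, TMM scaling, filterByExpr with a minimum count of 10), with p-values adjusted by Benjamini-Hochberg over all genes tested at 5%. An interaction term over all 10 libraries compared the sets. Intervals are at 95%. Levels are CPM after TMM scaling over all libraries, and log2(CPM + 1) served for spread and likeness. DESeq2 1.42.0, limma-voom 3.58.1, other scalings and filters, and each library left out were tried. Labels name no separate cultures or litters, so p-values measure only the spread between these samples. Samples compared pairwise differed by more than sampling noise. Named were all members and, of the other network genes, the 3 with the smallest p where none passed. A knockout single-embryo replicate numbered 2 was not analysed here. Scripts were tested on simulated data with spreads estimated from these libraries. There 10.4% of 2-fold and 48.4% of 4-fold changes passed in single embryos, and 30.3% and 84.5% in pools. Of the simulated calls, 8.47% in single embryos and 13.2% in pools were false.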

Additional observations from a re-analysis of the deposited data

How the results depend on the processing

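Of 457 values of members recomputed under alternatives, 429 kept their direction and side of the threshold. In single embryos 605 genes passed, against 1957 with DESeq2, 1715 with no filter, 1287 among genes with at least 10 CPM, 187 with the replicate number as a block, 1667 with the spread from all 10 libraries, and 1 to 1316 with 1 library left out. Members passing were 1 with no filter (Pou5f1) and 1 with all libraries (Nr5a2), and 0 with any library left out. The share of higher among these calls was 26.6%, against 41.6% with upper-quartile scaling, 48.6% with DESeq2, 39.3% at 10 CPM, 42.4% with no filter and 47.5% with all libraries, and it was 4.88% of 41 calls without wild-type replicate 1, 6.06% of 66 without knockout replicate 1 and 45.7% of 1316 without knockout replicate 3. In pools 0 genes passed, against 71 with DESeq2, 1 with limma-voom, 170 with no filter, 39 with the block and 25 to 379 with 1 library left out. A lone library is there assumed to vary like the other group. For the difference between sets 1 gene passed, against 544 with DESeq2, 548 with no filter, 0 with the block and 0 to 2 with 1 library left out. Members passing there were 1 with DESeq2 (Nr5a2) and 1 with no filter (Pou5f1). No label says that equal replicate numbers mark a shared source. In single embryos the block pairs only replicates 1 and 3. Wild-type replicate 2 and knockout replicate 4 have no partner there and add nothing to the blocked change. Deviations of same-numbered single embryos correlated at -0.052 and -0.174. In pools both same-numbered pairs gave 0.569 and both unlike pairs -0.569, values that 2 groups of 2 tie together, so they are a hint from the data and not the design. The block called 0 members in each comparison, and in pools its adjusted p was 0.0647 for Nanog and 0.00336 for Jarid2. The causes of these shifts were not tested.

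Log2 changes of members that changed sign were uncalled. With 1 library left out they ranged as follows. In single embryos Nanog ran from -0.30 to 0.12, Klf4 from -0.79 to 0.14 and Prdm14 from -0.53 to 2.31. In pools Klf4 ran from -0.16 to 0.13, Esrrb from -0.012 to 0.32, Sall4 from -0.027 to 0.13 and Prdm14 from -0.52 to 0.26. For the difference Sox2 ran from -0.89 to 0.18, Klf4 from -0.76 to 0.20, Tfcp2l1 from -0.24 to 0.050 and Prdm14 from -0.43 to 2.43. Without changing sign, in single embryos Pou5f1 ran from 0.35 to 1.03, Sox2 from -1.32 to -0.30, Esrrb from -0.84 to -0.07, Sall4 from -0.73 to -0.30 and Nr5a2 from -0.72 to -0.53. With the replicate block Prdm14 was -0.41 in single embryos and -0.31 for the difference. Klf4 in pools was 0.034 with upper-quartile scaling, 0.077 with library totals and 0.046 at 10 CPM. Library totals moved the median difference of all genes from -0.05 to -0.21. With 2 or 3 libraries a group, and 0 to 128 counts of Prdm14 a library, small changes were not detectable, and simulated 2-fold changes were mostly missed.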
